A study of Mus musculus with 6 samples.

Results

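The genes described here are 35 members of the type I interferon response, taken as a fixed list of gene symbols. No measured value entered its rule, but the list was chosen with earlier results of these data known. A gene was measured by the probe set that the array annotation pairs with its symbol alone, and where several probe sets qualified, by the one with the highest mean over the 6 arrays. By this rule 33 of the 35 genes had a value, among 22180 genes in all. Oas1a was only on a probe set shared with Oas1g, no probe set named Ifi44, and neither was analysed here. Gene expression was read in the lungs of 3 Cd-treated mice and 3 control mice, with 1 Affymetrix Mouse Gene ST 2.0 array per mouse. All were male C57Bl6 mice bought at 8 weeks of age and killed at 28 weeks. The Cd-treated mice drank water with 10 mg/L CdCl2 for 20 weeks, while control mice drank water without it. By the paper's methods, mice of both groups were anesthetized and their airway resistance was measured, with inhaled methacholine, before the lungs were taken. Both groups ate the same chow, which itself held a trace of Cd, and were housed several to a cage, with the cage of each mouse not given in the sources used here. Values are log2 robust multiarray average (RMA) values, and every log2 fold change is Cd minus control.

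Type I interferons are cytokines that cells release when sensors such as RIG-I and MDA5 meet viral nucleic acid. They bind a receptor made of Ifnar1 and Ifnar2, whose kinases phosphorylate Stat2. A complex that holds Stat2 and Irf9 enters the nucleus and switches on genes through a DNA element called the interferon-stimulated response element (ISRE), whereas interferon gamma acts mainly through the gamma-activated site (GAS). In lung the induced proteins restrict viruses in epithelium, endothelium and macrophages, and a low tonic level of the response is present without infection.

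Promoter sequences of the members, from 250 bases before to 50 after the start site, were read from the RefSeq table of build GRCm38.p6, which held 29 promoters of 24 of the 33 genes. The promoter table did not hold Mx1, Mx2, Oas2, Usp18, Dhx58, Rtp4, Parp9, Parp14 and Zbp1. Searched on both strands, the ISRE letters GAAANNGAAA were in 11 of the 29 promoters (37.9%), against 3.44% of all 32851 promoters in the table. The GAS letters TTCNNNGAA, which read alike on both strands, were in 7 of the 29 (24.1%), against 8.30% of all. Matches could overlap one another. The windows below are from members on which the results turn, with capitals marking the match, and each reads along the strand of its gene.
Bst2: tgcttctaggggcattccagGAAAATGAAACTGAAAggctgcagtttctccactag
Isg15: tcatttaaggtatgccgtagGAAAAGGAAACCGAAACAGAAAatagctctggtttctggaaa
Ifih1: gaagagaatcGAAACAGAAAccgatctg
Ddx58: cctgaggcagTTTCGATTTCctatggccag
Ifit1: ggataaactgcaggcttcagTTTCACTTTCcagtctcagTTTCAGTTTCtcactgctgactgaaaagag
Ifit3: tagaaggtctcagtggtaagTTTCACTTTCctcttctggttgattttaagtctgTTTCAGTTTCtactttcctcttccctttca
Oas3: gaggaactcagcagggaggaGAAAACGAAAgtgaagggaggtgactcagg
Irf1: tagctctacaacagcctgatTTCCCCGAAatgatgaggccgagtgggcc
The window of Bst2 is chr8:71537567-71537622 on the minus strand and held 2 overlapping ISRE matches, and that of Isg15 is chr4:156200855-156200916 on the minus strand and held 3. The matches of Ifih1 (window chr2:62646206-62646233, minus strand) and Ddx58 (window chr4:40239804-40239833, minus strand) lie past the start site. The 2 separate matches of Ifit1 are in chr19:34640765-34640833 and those of Ifit3 in chr19:34583353-34583436, both on the plus strand. The Oas3 window is chr5:120777705-120777754 on the minus strand, and the Irf1 window, shown for its GAS letters, is chr11:53769904-53769952 on the plus strand. A match is a description of the sequence and does not show that a factor binds there.

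The arrays correlated with one another at 0.82 to 0.971, lowest between Cd replicate 3 and control replicate 3. The highest correlation of control replicate 3 with another array was 0.931, near the 0.936 of Cd replicate 1. In markers of skeletal muscle and squamous epithelium control replicate 3 stood apart from the others. The mean log2 value over 7 skeletal muscle markers was 4.92 to 5.24 on the Cd arrays, against 4.88, 5.10 and 8.83 on control replicates 1 to 3. Over 5 squamous epithelium markers it was 4.39 to 4.53 on the Cd arrays, against 4.32, 4.36 and 6.38 on the controls. Markers of lung epithelium were high on every array, with means of 9.37 to 9.66 on the Cd arrays and 9.26 to 10.06 on the controls, where the upper quartile of an array was at most 6.06. Of the members, 21 lay above the array median on all 6 arrays, and Isg15, Mx1 and Mx2 fell below the lower quartile on at least 1 array. The remaining 9 did neither, and of these Oasl1 and Rsad2 were above the median on 0 arrays and Dhx58 on 1. Because of control replicate 3, the main results are also given without that array.

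No member of the interferon response passed the test between Cd-treated and control lungs. By limma, 0 of the 33 members had an unadjusted p under 0.05, where 1.19% of all genes did (263 of 22180), and the methods' t-test also gave 0 members, with 579 of all genes. At an adjusted p under 0.05 limma called 0 members, and 0% of all genes. The log2 fold changes ran between -0.63 for Ifih1 and 0.36 for Oas2. They were negative for 24 members and positive for 9, with a median of -0.16, while over all genes the median was -0.018 and 47.2% were positive. Without control replicate 3 the median over the members was -0.058, with 19 negative and 14 positive, and 0 members had an unadjusted p under 0.05.

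How large a change these arrays leave room for is given by the 95% intervals. All 33 intervals included 0, and 22 lay wholly between -1 and 1 on the log2 scale. Another 11 reached below -1, to -1.39 at the lowest, and none reached above 1. The pooled within-group SD of a member had a median of 0.34, against 0.28 over all genes. A p that misses the threshold does not show that Cd left a gene unchanged. The number of arrays limits the precision, since an exact permutation test of 3 against 3 cannot go below 0.1. Lung tissue is a mixture, in which fewer cells of a type and less RNA per cell cannot be told apart.

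**Figure D1:**
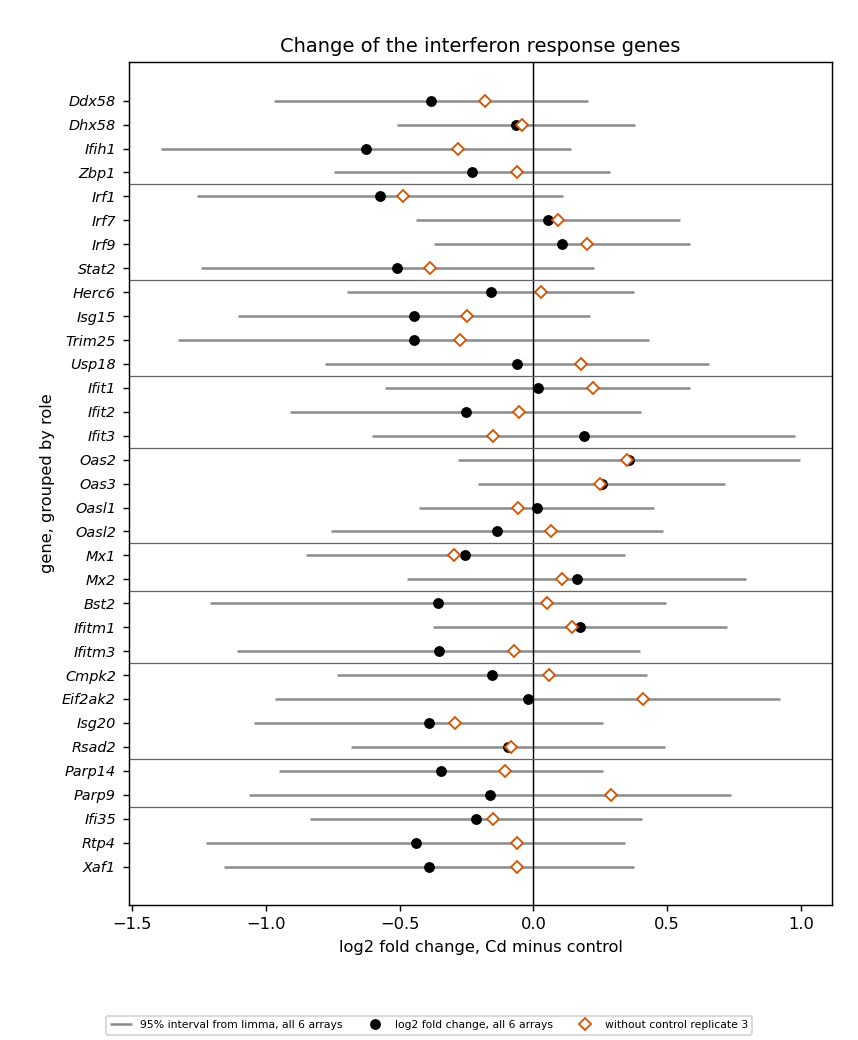
Log2 fold change of each measured member (Cd minus control, horizontal axis), grouped by role, with black points for all 6 arrays, grey bars for limma's 95% interval and open diamonds for the value without control replicate 3. Every grey bar crosses 0, and the diamonds of most members lie to the right of their points.

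Among the sensors of foreign nucleic acid, all 4 had negative log2 fold changes, with a median of -0.31. Ifih1, the gene of MDA5, which senses long double-stranded RNA, read 5.74, 5.76 and 5.34 on the Cd arrays, against 5.90, 5.88 and 6.93 on control replicates 1 to 3. Its groups did not overlap, the Cd arrays being lower, and it was the only member of which this was true. That is 1 of 33 members (3.03%), below the 7.14% of all genes whose groups were apart, with Cd higher in 3.81% and lower in 3.33%. The log2 fold change of Ifih1 was -0.63 (95% interval -1.39 to 0.14, limma unadjusted p 0.0944), the exact permutation p was 0.1, the smallest possible, and without control replicate 3 the log2 fold change was -0.28. In Ddx58, the gene of RIG-I, which senses short RNA with a triphosphate end, values were 5.86, 5.58 and 5.56 on Cd arrays and 6.02, 5.67 and 6.45 on control arrays. These overlapped, and its log2 fold change was -0.38 (95% interval -0.97 to 0.20), or -0.18 without control replicate 3. Zbp1, a sensor of Z-form nucleic acid, had -0.23, or -0.060 without that array, and Dhx58, whose protein LGP2 tunes the other sensors, had -0.065.

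The signalling and transcription factors were split, 2 negative and 2 positive, with Irf7 turning to -0.0062 when each array was centred on its median. Irf1, a transcription factor that both interferon types induce, read 6.26, 5.96 and 5.76 on Cd arrays and 6.02, 6.94 and 6.73 on control arrays. Control replicate 1 lay below Cd replicate 1, so the groups overlapped, and the log2 fold change was -0.57 (95% interval -1.26 to 0.11), with the smallest unadjusted p of all members by limma, 0.0880. Without control replicate 3 it was -0.49. Stat2, the signal transducer particular to the type I and III pathway, read 6.10, 5.13 and 5.40 on Cd arrays, against 5.66, 6.20 and 6.30 on controls. Its Cd arrays spanned nearly the range of all 6, and the log2 fold change was -0.51 (95% interval -1.24 to 0.23). Irf9, the DNA-binding partner of Stat2, read 5.28, 5.32 and 5.23 on Cd arrays and 4.86, 5.29 and 5.36 on control arrays, a log2 fold change of 0.11 (95% interval -0.37 to 0.58). Irf7, which drives the interferon alpha genes and amplifies the response, read 5.24, 5.46 and 5.25 on Cd arrays and 4.96, 5.49 and 5.33 on controls, a log2 fold change of 0.056 (95% interval -0.44 to 0.55). For both, the Cd arrays lay within the control range.

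Isg15, a ubiquitin-like protein that is joined to newly made proteins, and its enzymes had a median log2 fold change of -0.30, all 4 of them negative with all arrays. Usp18 turned to 0.057 under cyclic loess and 0.013 under a second quantile normalization, and without control replicate 3 Usp18 and Herc6 were at 0.18 and 0.028. Isg15 read 4.41, 3.94 and 4.68 on Cd arrays and 4.50, 4.69 and 5.19 on control arrays. Only Cd replicate 3 reached above a control array, and the log2 fold change was -0.45 (95% interval -1.10 to 0.21), or -0.25 without control replicate 3. Trim25, a ubiquitin ligase that activates RIG-I, read 6.81, 6.42 and 5.44 on Cd arrays and 6.55, 6.45 and 7.02 on control arrays, and its log2 fold change was -0.45 (95% interval -1.33 to 0.43), or -0.056 without Cd replicate 3 and -0.27 without control replicate 3. Cd replicate 3 was its lowest array and control replicate 3 its highest, while the remaining arrays overlapped. Usp18, which removes ISG15 and damps the receptor, had -0.061, and Herc6, the main ISG15 ligase of mice, had -0.16.

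The IFIT proteins, which bind foreign RNA and block its translation, had a median log2 fold change of 0.016, or -0.046 after centring. Ifit1, which recognizes caps that lack a methyl mark, read 5.46, 5.67 and 5.61 on Cd arrays and 5.53, 5.19 and 5.97 on control arrays, and its log2 fold change was 0.016 (95% interval -0.55 to 0.59). All Cd arrays lay inside the control range. The log2 fold change of Ifit1 was 0.22 without control replicate 3. Ifit2 had -0.25, or -0.055 without that array. Ifit3, which stabilizes Ifit1, had 0.19, and it was the only member lowest on control replicate 3, at 6.22 there and 6.78 to 7.39 on the other arrays. Without that array its log2 fold change was -0.15.

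Of the oligoadenylate synthetase family, whose products activate an RNase, 3 of 4 measured genes had positive log2 fold changes, with a median of 0.13, and 2 of 4 after any of the rescalings tried, where Oasl1 turned negative. Oas2 read 5.27, 4.84 and 5.71 on Cd arrays, against 4.69, 5.17 and 4.90 on controls, and Oas3 read 5.17, 4.94 and 5.33, against 4.76, 5.04 and 4.88. These had the largest positive log2 fold changes of the members, 0.36 (95% interval -0.28 to 1.00) and 0.25 (95% interval -0.21 to 0.71), and in both genes Cd replicate 2 lay below control replicate 2. Without control replicate 3 they were 0.35 and 0.25. Values of the relatives Oasl1, which in mice restrains Irf7 translation, and Oasl2 were 0.012 and -0.14, or -0.058 and 0.067 without control replicate 3. Mx1, a GTPase active against influenza virus that most laboratory strains carry in a defective form, read 3.49, 3.12 and 3.14 on Cd arrays and 3.16, 3.93 and 3.42 on control arrays. It was below the lower quartile on all 6 arrays, and its log2 fold change was -0.25 (95% interval -0.85 to 0.34). Mx2 had 0.16. Copies of the Ifit, Oas, Mx and Ifitm families share sequence, and cross-hybridization between them was not tested.

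**Figure D2:**
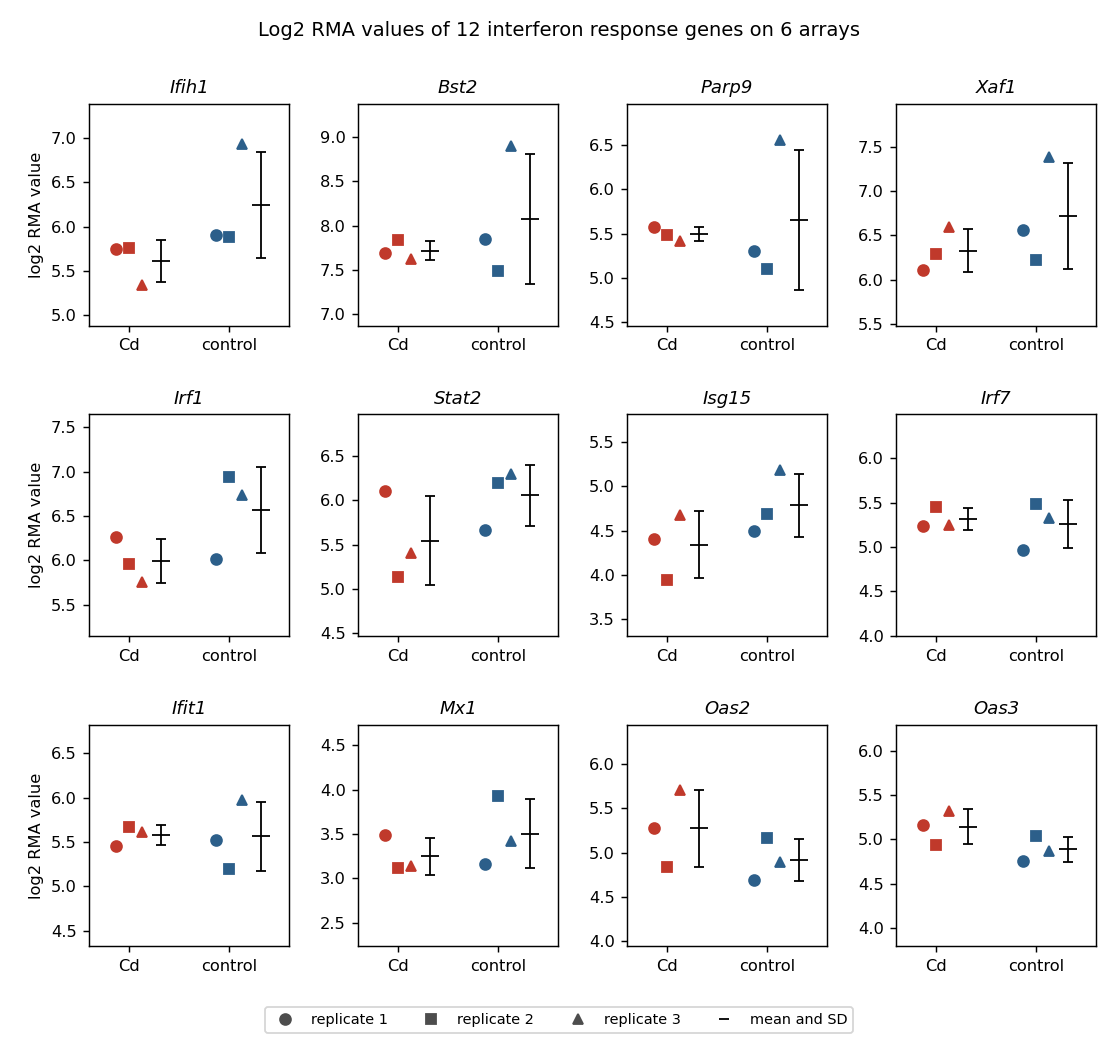
Log2 RMA values (vertical axis) of 12 members on the Cd arrays in red and the control arrays in blue, with a marker shape for each replicate and the mean with SD in black. The vertical axes all span the same log2 range but start at different levels, and in 11 of the 12 panels the groups overlap, Ifih1 being the exception.

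Of the membrane proteins that block viral entry or release, Bst2 and Ifitm3 differed mainly by 1 control array. Bst2, or tetherin, which holds budding virus at the cell surface, read 7.70, 7.84 and 7.62 on Cd arrays and 7.85, 7.49 and 8.90 on control arrays. Its log2 fold change was -0.36 (95% interval -1.21 to 0.49) with all arrays and 0.051 without control replicate 3. Ifitm3, which stops enveloped viruses from fusing in endosomes, read 8.85, 9.33 and 9.15 on Cd arrays and 9.50, 8.86 and 10.02 on controls. Its log2 fold change was -0.35 (95% interval -1.11 to 0.40) and -0.073 without that array. Ifitm1, which acts at the cell surface, had 0.17, or 0.14 without that array, and was highest on Cd replicate 2.

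With all arrays, effectors acting on nucleotides, RNA and translation all had negative log2 fold changes, with a median of -0.13. Isg20, an exonuclease, read 6.86, 6.15 and 5.96 on Cd arrays and 6.55, 6.68 and 6.91 on control arrays, a log2 fold change of -0.39 (95% interval -1.04 to 0.26). Eif2ak2, or PKR, the kinase that halts translation when it binds double-stranded RNA, read 5.81, 5.41 and 5.06 on Cd arrays and 5.12, 4.92 and 6.31 on control arrays. With control replicate 3 its log2 fold change was -0.022 (95% interval -0.97 to 0.92), and without it 0.41, so the sign depended on that array. Rsad2, or viperin, which makes a chain-terminating nucleotide, and its neighbour Cmpk2, a nucleotide kinase, had -0.095 and -0.16, and Cmpk2 turned to 0.057 without that array.

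The ADP-ribosyltransferase family genes Parp9 and Parp14 had log2 fold changes of -0.16 and -0.35, or 0.29 and -0.11 without control replicate 3. Parp9, the partner of an E3 ligase in interferon signalling, read 5.58, 5.49 and 5.42 on Cd arrays and 5.31, 5.10 and 6.56 on control arrays. Without control replicate 3 it had the smallest unadjusted p of the members, 0.175 by limma. Of the other induced genes, Rtp4, a receptor chaperone, read 5.69, 5.56 and 5.57 on Cd arrays and 5.75, 5.58 and 6.80 on control arrays. Xaf1, a pro-apoptotic partner of XIAP, read 6.11, 6.29 and 6.59 on Cd arrays and 6.56, 6.22 and 7.38 on control arrays. Their log2 fold changes, -0.44 (95% interval -1.22 to 0.34) and -0.39 (95% interval -1.16 to 0.38), were -0.062 and -0.060 without control replicate 3. Ifi35 had -0.21.

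**Figure D3:**
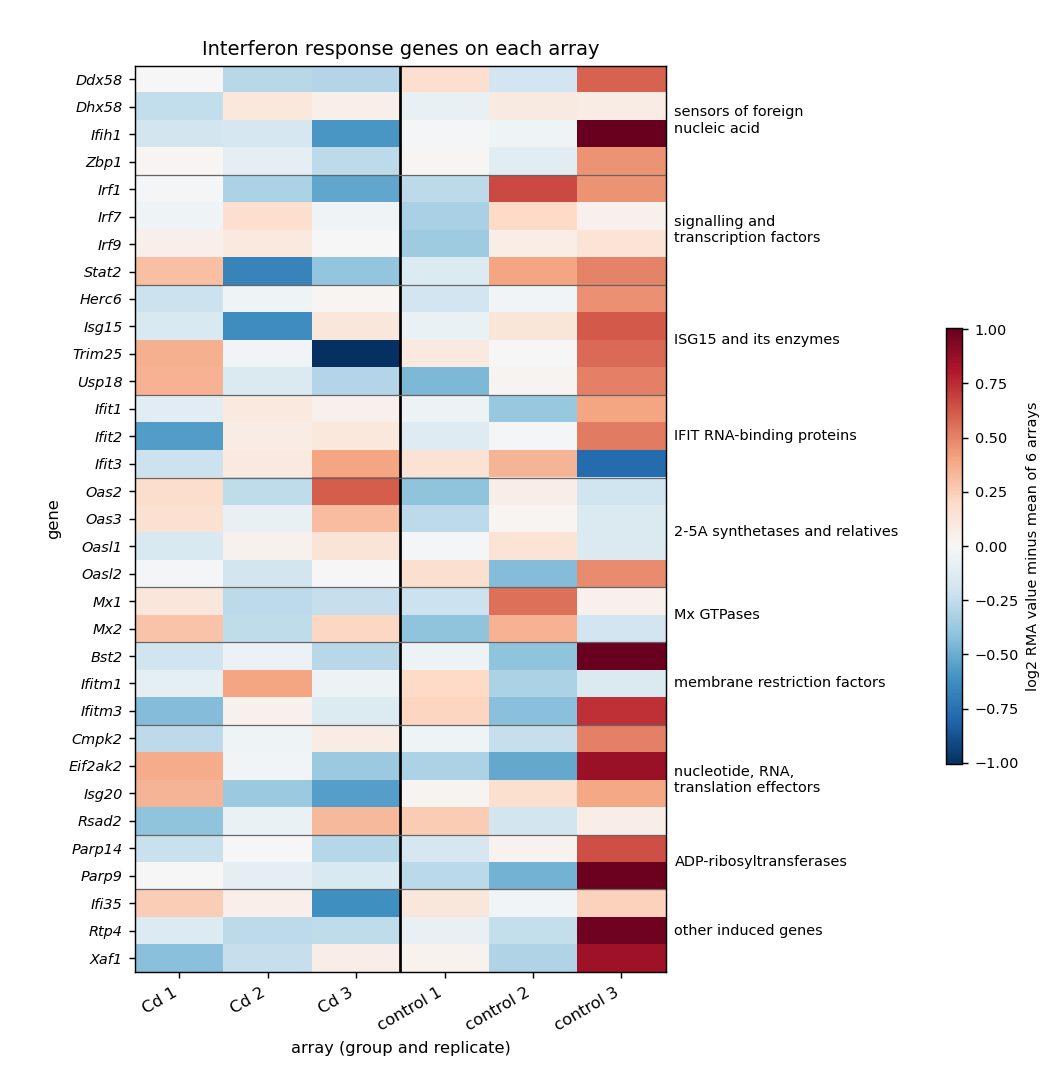
Each measured member (rows, grouped by role) on each array (columns, Cd arrays left of the line), coloured by its log2 RMA value minus its mean over the 6 arrays, with the colour scale ending at the largest deviation. The column of control replicate 3 is red for most members, and Ifit3 is blue there.

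By the median over the members, 1 array stood further from the rest than any other did. Control replicate 3 was the highest array for 21 of 33 members (63.6%), where it was the highest for 34.3% of all genes. Measured against the mean of the other 5 arrays, its excess had a median of 0.55 over the members and 0.036 over all genes, and it passed 0.5 for 19 members (57.6%) and 22.2% of all genes. The largest excesses were those of Ifih1 (1.20), Bst2 (1.20), Parp9 (1.18), Rtp4 (1.17), Eif2ak2 (1.04) and Xaf1 (1.03). On each of the other 5 arrays the median over the members lay between -0.082 and -0.014. Cd replicates 1 and 3 were each the lowest array for 8 of the 33 members (24.2%), and for 13.3% and 26.2% of all genes. The members that peaked elsewhere were Oas2, Oas3, Ifit3 and Rsad2 on Cd replicate 3, Dhx58 and Ifitm1 on Cd replicate 2, Ifi35 on Cd replicate 1, and Irf1, Irf7, Mx1, Mx2 and Oasl1 on control replicate 2.

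Part of this excess was shared by other genes of similar brightness. The 21 members above the array median on all 6 arrays had a median excess of 0.60 on control replicate 3, and 16 of them passed 0.5. Over all 9484 genes as bright as these, the median was 0.36, 39.0% passed 0.5 and the array was the highest for 56.3%. After cyclic loess normalization of the deposited values, the medians were 0.35 over the members, with 17 of 33 highest on that array, 0.44 over the bright members and 0.12 over the bright genes. After a second quantile normalization they were 0.45, 0.48 and 0.24, and after centring each array on its median 0.75, 0.81 and 0.56. The members were above all genes and above the bright genes under each of these scalings, in size to a different degree.

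Markers of several cell types were also highest on control replicate 3. Those of capillary endothelium, a large part of lung tissue, had a mean log2 value of 7.10 to 7.50 on the Cd arrays, against 7.59, 6.91 and 8.31 on control replicates 1 to 3, and all 7 were highest on control replicate 3. Immune cells, which respond to interferon as the lining cells do, moved less. The inflammatory monocyte markers had means of 5.84 to 5.98 on the Cd arrays, against 5.97, 5.79 and 6.30 on the controls, with 4 of 5 highest there. Alveolar macrophage markers had means of 6.18 to 6.41 on the Cd arrays, against 6.37, 6.17 and 6.69, with 3 of 7 highest there. T and NK cell markers averaged 5.44 to 5.48 on the Cd arrays, against 5.40, 5.25 and 5.75 on the controls, and B cell markers 5.87 to 6.09, against 6.23, 5.84 and 6.11. None of these immune lists stood as far above the other arrays on control replicate 3 as endothelium did. Plasmacytoid dendritic cells are the main makers of interferon alpha, and their 6 markers had means of 4.99 to 5.09 on the Cd arrays and 5.15 to 5.32 on the controls, with 1 of 6 highest on control replicate 3. One of those markers, Cox6a2, which striated muscle also expresses, was lower in Cd lungs at an unadjusted p under 0.05. The neutrophil list varied within both groups. The heart muscle list was apart between them, as was, by a smaller gap, the plasmacytoid dendritic cell list. Neutrophil markers averaged 5.39 to 6.84 on the Cd arrays and 5.63 to 6.90 on the controls. Heart muscle markers averaged 7.002 to 8.12 on the Cd arrays and 8.42 to 9.16 on the controls, 4 of 7 of them lower in Cd lungs at an unadjusted p under 0.05. Of all markers only Sprr3, of squamous epithelium, lay below the lower quartile on all 6 arrays. The part of these cell types in the members' values was not tested.

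**Figure D4:**
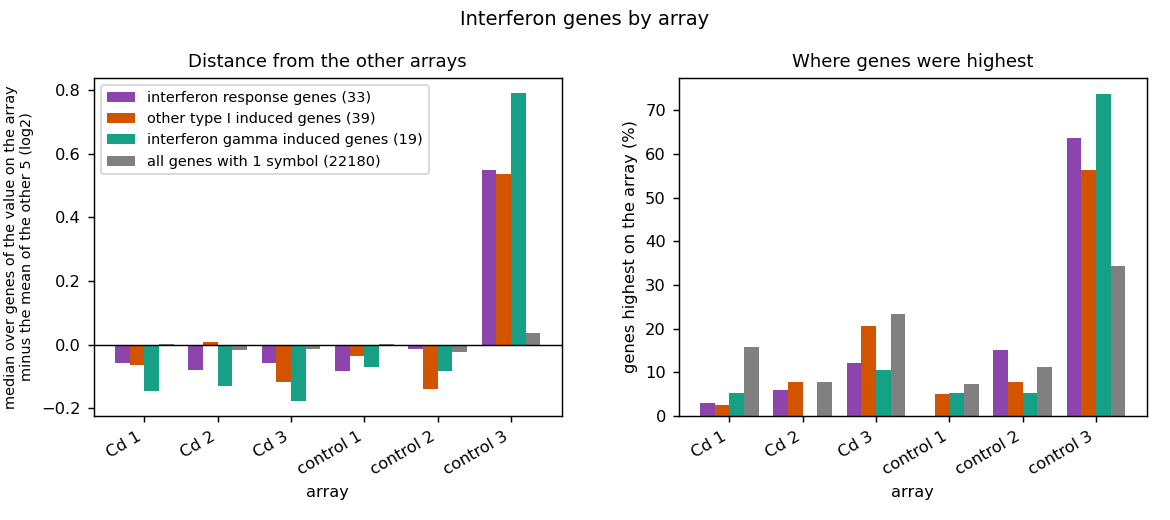
Left, for each array, the median over genes of the value on that array minus the mean of the other 5 (log2), and right, the percent of genes highest on it, for the members, other type I induced genes, interferon gamma induced genes and all genes. The tallest bars of the 3 interferon lists stand on control replicate 3, at 0.55, 0.54 and 0.79 on the left.

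The promoter letters were set beside that excess as a description. Over the 11 members with the ISRE letters its median was 0.72, with 8 highest on control replicate 3. The 13 members whose promoters lacked the letters had a median of 0.55, also with 8, and the 9 members not in the promoter table had 0.54, with 5. Across all genes the letters did not go with a higher value on that array, since the 657 genes that had them had a median of 0.0045 and 34.7% highest there. Ifit3, Oas3 and Rsad2 had ISRE letters and were highest on Cd replicate 3, so members with the element did not all peak on the same array.

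The interferon ligands ran the other way on the arrays. Besides type I genes, their list holds Ifng, the gene of interferon gamma, and the type III genes Ifnl2 and Ifnl3. The log2 fold changes of Ifng, Ifnl2 and Ifnl3 were -0.14, 0.22 and 0.49, and the counts below include them. Of 21 ligand genes listed, 19 were measured, 16 of these had positive log2 fold changes, and 0 passed an unadjusted p under 0.05 by limma, with a median of 0.23 and 0.11 without control replicate 3. Ifne, the epithelial interferon epsilon, read 4.91, 5.07 and 5.12 on Cd arrays, against 4.41, 4.79 and 3.37 on controls, a log2 fold change of 0.84 (95% interval -0.011 to 1.70, limma unadjusted p 0.0522) and 0.44 without control replicate 3. Ifna7, an interferon alpha, read 6.17, 6.12 and 6.19 on Cd arrays and 5.93, 5.78 and 5.37 on controls, a log2 fold change of 0.47 (95% interval -0.022 to 0.96). In both genes all Cd arrays were above all control arrays. This held for 3 of the 19 ligands (15.8%), where 3.81% of all genes had Cd higher with no overlap. The remaining 1 of these 3, Ifna11, lay below the lower quartile of every array. Its lowest Cd value was 2.252 and its highest control value 2.251, so its groups were barely apart. Control replicate 3 was the lowest array for 13 of the 19, where it was the lowest for 27.0% of all genes. It also had the lowest median of the arrays, 4.86. Of the 19 ligands, 8 lay above the array median on all 6 arrays and 4 below the lower quartile on all 6. The ligands were not set beside genes of similar brightness. The interferon alpha genes are near-identical copies without introns, so their probe sets may share transcripts and are uncertain as separate genes. After cyclic loess, or after a second quantile normalization, 2 ligands had an unadjusted p under 0.05, and after centring 1 did, where 273, 267 and 204 of all 22180 genes did.

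The medians of the receptors and kinases and of the upstream sensing genes were near 0 once control replicate 3 was left out, with genes on both sides. Of the 9 receptor and JAK-STAT genes measured, 8 were negative, with a median log2 fold change of -0.19 and 0.012 without that array. The smallest unadjusted p values were those of both interferon gamma receptor chains, Ifngr2 at -0.42 and Ifngr1 at -0.40. Ifnar1, of the type I receptor, read 6.48, 6.46 and 6.23 on Cd arrays and 6.38, 6.35 and 7.57 on controls. Of 13 upstream genes 12 were measured, with a median of -0.18 and -0.029 without that array, and 0 passed an unadjusted p under 0.05. Among these Tlr3, an endosomal sensor of double-stranded RNA, had -0.68 (limma unadjusted p 0.0888) and the adaptor Myd88 had -0.49 (limma unadjusted p 0.141).

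In the gene lists around the members only 1 gene, an inhibitor, had an unadjusted p under 0.05 by limma, where 1.19% of all genes did. Socs3, an inhibitor of JAK kinases that interleukins of the gp130 family induce more than type I interferons do, read 5.79, 5.63 and 5.18 on Cd arrays and 5.75, 6.50 and 6.50 on control arrays. Its log2 fold change was -0.72 (95% interval -1.39 to -0.042, limma unadjusted p 0.0402, adjusted p 0.992), with control replicate 1 inside the range of the Cd arrays. Without control replicate 3 the log2 fold change was -0.59 and the unadjusted p 0.105 by limma. Of the 10 listed inhibitors 9 were negative, with a median of -0.25, or -0.12 without control replicate 3.

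Most genes with related induction were highest on control replicate 3, as most members were. That array was also the highest for 34.3% of all genes and for 56.3% of the bright genes described above. Of 42 other type I induced genes 39 were measured, with a median log2 fold change of -0.12 and 0.014 without control replicate 3. Of these, 22 of 39 (56.4%) were highest on that array. Over all 39 the median excess there was 0.54, against 0.36 over the bright genes and 0.036 over all genes. Only 27 of the 39 lay above the array median on all 6 arrays, so this list and the bright genes are not matched in brightness. The smallest unadjusted p values of that list by limma were 0.0571 for Ifi204, a DNA sensor of the p200 family, at -0.93, and 0.153 for Shisa5, at -0.41. Their log2 fold changes were -0.52 and -0.28 without control replicate 3, and Ifi204 lay below the lower quartile on every array but that one. Of 22 genes best known as interferon gamma induced 19 were measured, 16 of them negative, with a median of -0.28 and 0.020 without control replicate 3. Iigp1, a GTPase acting on parasite vacuoles, read 6.23, 5.87 and 5.97 on Cd arrays and 6.34, 6.46 and 7.50 on controls, and Ido1, which breaks down tryptophan, read 4.92, 4.92 and 4.96 on Cd arrays and 5.09, 5.24 and 5.37 on controls. These groups did not overlap, as in 4 of the 19 genes (21.1%), all lower in Cd lungs, where 3.33% of all genes had Cd lower with no overlap. The log2 fold changes of Iigp1 and Ido1 were -0.74 (95% interval -1.53 to 0.043) and -0.30 (95% interval -0.71 to 0.12), or -0.37 and -0.23 without control replicate 3. In that list 14 of 19 genes (73.7%) were highest on control replicate 3.

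**Figure D5:**
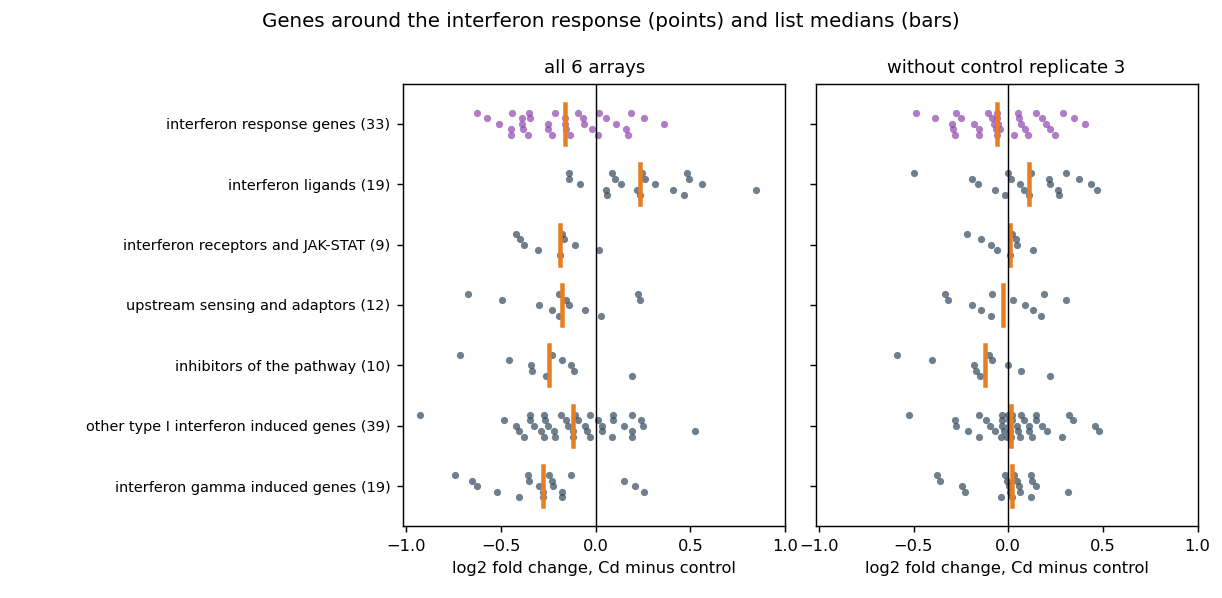
Log2 fold changes (Cd minus control, horizontal axis) of the members and of the genes in 6 lists around them, with 1 point per gene and an orange bar at each list's median, for all 6 arrays on the left and without control replicate 3 on the right. The medians lie between -0.28 and 0.23 with all arrays and between -0.12 and 0.11 without it.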

How the data were processed

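The authors hybridized NuGEN-amplified lung RNA to Affymetrix Mouse Gene ST 2.0 arrays and turned the scans into log2 RMA values with the R package oligo, that is, background correction, quantile normalization and median polish of the probes of a probe set. The deposited log2 values of 41345 probe sets were used as given. RMA and limma are named in the submitters' processing notes without versions, and no genome build is named. The array annotation paired 23521 probe sets with 1 symbol, 1820 with several and 16004 with none. The listed symbols Mb21d1 and Tmem173 were read as Cgas and Sting1 through the synonyms of the RefSeq table.

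Groups were compared in R 4.3.3 with limma 3.58.1, fitted over all probe sets with the group as its only term and adjusted by Benjamini and Hochberg. The methods' t-test is a plain t-test on the same values. The steps were tested on simulated data. Arrays with the same replicate number were checked for pairing. Alternatives were other priors, scalings, array weights, a filter on dim probe sets, averaging a gene's probe sets, the replicate block and leaving out each array. The labels call the arrays biological replicates, and p-values measure the spread between them. The members and gene lists were chosen with earlier results of these data known. Values per array are given for members whose groups did not overlap, the 10 largest log2 fold changes in size, the 5 widest ranges over the arrays, and Stat2, Irf9, Irf7, Isg15, Ifit1, Mx1, Ifitm3 and Bst2. Values per array of Oas2, Oas3, Ifnar1 and Ifna11 were added after they had been seen. Of each gene list, genes under the unadjusted threshold or the 2 with the smallest p are named.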

Additional observations from a re-analysis of the deposited data

How the results depend on the processing

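The count of members with an unadjusted p under 0.05 by limma, 0 in the report, stayed at 0 under other priors, the methods' t-test, all 3 rescalings, the filter on dim probe sets and the mean of all probe sets. With array weights it was 6 (Isg15, Isg20, Irf7, Irf9, Stat2 and Ddx58), where 4589 of all 22180 genes passed too, and the weights ran between 0.230 for control replicate 3 and 6.41 for Cd replicate 2. Leaving out 1 array gave 0 to 2, namely Isg20 and Stat2 without Cd replicate 1, where 2.12% of all genes passed, and Irf1 without control replicate 1, where 1.00% did. The number of members whose groups did not overlap, 1 in the report, was 2 to 8 (6.06% to 24.2%) when 1 array was left out, where 12.3% to 23.5% of all genes were apart, since smaller groups separate more easily. The median over the members stayed negative under all alternatives. Some signs turned, since centring gave -0.046 for Ifit1 and -0.0062 for Irf7, and array weights gave 0.16 for Parp9 and 0.27 for Eif2ak2. Leaving out 1 array gave ranges of -0.17 to 0.22 for Ifit1, -0.093 to 0.17 for Irf7, -0.048 to 0.20 for Irf9, -0.29 to 0.41 for Eif2ak2, -0.65 to 0.051 for Bst2 and -0.44 to 0.29 for Parp9. Values of single named members under the alternatives kept their sign and side of the threshold 230 times, newly passed it 9 times and changed sign 14 times. The cause was not tested.

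With the replicate block 0 members passed (smallest unadjusted p 0.149 for Isg15, limma), with 69 of all genes against 263 without it. Deviations of same-numbered arrays from their group means correlated at -0.49, 0.071 and -0.51. With 3 arrays a group these deviations depend on one another, so this check cannot exclude that the numbers pair the arrays. The filter on dim probe sets kept 26 members with a median of -0.22, and the median of all genes left was -0.11. Mx1 lay below the lower quartile on 6 arrays, Mx2 on 2 and Isg15 on 1. Changes of genes near the bottom of the arrays, Mx1 above all, may be understated.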
